A study of Mus musculus with 2 samples.

Results

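The epicardium is the thin layer of mesothelium, a flat epithelium of mesodermal origin, that covers the heart. In the embryo its cells are known to undergo epithelial-to-mesenchymal transition and to give rise to cardiac fibroblasts and to mural cells of the coronary vessels. Mesothelium of the heart, pleura and peritoneum shares surface proteins and keratins that are otherwise typical of epithelia. The 9 genes described here are used as markers of these cells: the transcription factors Wt1, Tbx18 and Tcf21, the retinaldehyde dehydrogenase Aldh1a2, the surface proteins Msln, Upk3b, Upk1b and Lrrn4, and the keratin Krt19. They were taken by name, each symbol matched 1 gene, and they are 9 of the 55536 genes in the deposited gene tables.

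Their RNA was measured by total RNA sequencing in hearts of female B6CASTF1/J mice aged 25 days, an F1 hybrid of a laboratory strain and a wild-derived strain. All animals belonged to a single group with no treatment and no engineered allele in the labels, and 2 libraries were made. Each began with 300 ng of RNA, to which ERCC spike-ins had been added. The labels call them biological replicates 1 and 2. They carry separate animal numbers but share a donor label. They were taken as 2 animals, and every SD below rests on that. The p-values below compare the reads of the 2 libraries and cover counting error only.

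The total of expected counts was 43190646 in replicate 1 and 42954475 in replicate 2, of which spike-ins held 0.518% and 0.544%. Values are in TPM, a level of transcripts corrected for transcript length and library total, from the alignment-based gene tables. Values from a separate quantification made directly from the reads are named read-based. A gene was called detected at 1 TPM or more in both hearts, which held for 10972 of 22015 nuclear protein-coding genes. The tissue label fitted its markers: all 6 listed cardiomyocyte genes were detected, the highest at a mean of 9642 TPM. Replicate 2 also held RNA of liver genes, with 7 of 7 listed genes higher there (a summed level of 2.83 TPM in replicate 1 and 27.0 in replicate 2).

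All 9 genes were detected in both hearts, and all lay at low levels. Their summed level was 37.3 TPM in replicate 1 and 28.0 in replicate 2, a mean of 32.6 ± 6.55 TPM (SD, n = 2). The highest mean, of Msln, was 4.33 times the lowest, of Upk1b. None of the 9 reached the median of detected nuclear protein-coding genes, which was 8.83 TPM. The counts behind these levels summed to 2862 in replicate 1 and 2270 in replicate 2. In whole tissue, fewer cells of a type and less RNA per cell cannot be told apart.

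**Figure D1:**
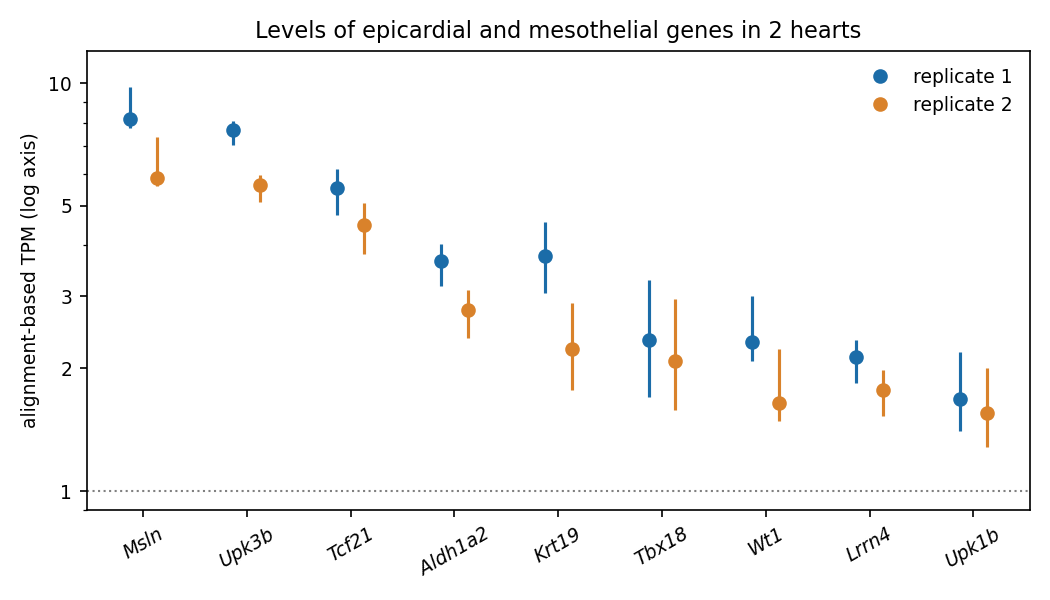
Level of each of the 9 genes in the 2 hearts, in alignment-based TPM on a log axis, with the deposited credibility interval of each value as a line. Msln and Upk3b stand highest, Upk1b stands lowest, and every value lies above 1 TPM, the dotted line.

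Wt1 (ENSMUSG00000016458.14, mm10 chr2:105126529-105173616, plus strand) encodes a zinc finger transcription factor of the epicardium, kidney and gonad. It is known for a pair of alternative splicing events. A choice of splice donor adds or omits 9 bases, which code for the amino acids KTS between zinc fingers, and a cassette exon of 51 bases is included or skipped. These sequences are shown because the transcripts that share Wt1 reads differ there, among other places. In the junctions below the capitals mark the 9-base insert, at chr2:105170010-105170018, and in the cassette they mark the exon, at chr2:105144142-105144192.
Wt1-205, with the insert: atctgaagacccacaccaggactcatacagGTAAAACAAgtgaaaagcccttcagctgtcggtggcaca
Wt1-204, without the insert: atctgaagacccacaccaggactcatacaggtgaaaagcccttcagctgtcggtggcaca
Cassette exon in Wt1-205: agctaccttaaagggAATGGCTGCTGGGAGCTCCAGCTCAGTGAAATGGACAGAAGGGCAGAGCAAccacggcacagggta

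Wt1 stood at 2.32 TPM in replicate 1 and 1.64 in replicate 2 (1.98 ± 0.481, SD, n = 2), from 161 and 131 counts. The credibility intervals deposited with these values, 2.08 to 3.01 TPM in replicate 1 and 1.49 to 2.23 TPM in replicate 2, overlapped. The read-based levels were higher, at 2.90 TPM in replicate 1 and 2.28 in replicate 2, and the ratio of the 2 quantifications, 1.31, was the highest among the 9 genes. The antisense gene Wt1os had 3 counts in replicate 1 and 1 count in replicate 2. Of 3 further genes listed with Wt1, the genes of the WT1-binding proteins Wtap (12.8 ± 1.24 TPM) and Wtip (4.22 ± 0.0212 TPM) were detected, and the corepressor gene Basp1, at 0.89 TPM in replicate 1 and 0.65 in replicate 2, was not.

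Transcripts with the KTS insert and transcripts without it were both assigned expected counts in both hearts. Reads across the junction were not examined. In replicate 2 the credibility intervals of those without the insert reached near 0, with lower limits of 3.09e-05 TPM for Wt1-204 and 0.03 TPM for Wt1-202. Among the protein-coding Wt1 transcripts, those with the insert held 57.9% of the level in replicate 1 and 60.6% in replicate 2. In the read-based tables they held 63.0% in replicate 1 and 44.3% in replicate 2, so the heart with the larger share was not the same in the 2 quantifications. The cassette exon was in 32.5% of the level in replicate 1 and 62.0% in replicate 2, and read-based in 43.4% and 64.6%. Replicate 1 thus had the lower cassette share in both quantifications. These shares rest on few reads, 69.1 expected counts in replicate 1 and 85.2 in replicate 2 for the transcripts with the cassette. The credibility intervals of all Wt1 transcripts overlapped between the hearts, and this difference was not tested.

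Wt1-205, with insert and cassette, held 29.4% of the gene in replicate 1 and 36.1% in replicate 2. Wt1-204, with neither, held 38.0% in replicate 1 and 16.6% in replicate 2. Wt1-204 led in replicate 1 and Wt1-205 in replicate 2, whereas Wt1-205 led in both hearts in the read-based tables. Wt1-202 received no count in replicate 1 and 23.4 in replicate 2, and its read-based share was 0% in replicate 1 and 16.5% in replicate 2.

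Tbx18 and Tcf21 encode the other transcription factors, which in the mouse mark the embryonic epicardium and its descendants. Tbx18, a T-box factor (ENSMUSG00000032419.8, chr9:87702800-87731260, minus strand), stood at 2.34 TPM in replicate 1 and 2.08 in replicate 2 (2.21 ± 0.184, SD, n = 2). Its counts, 272 in replicate 1 and 267 in replicate 2, were the closest between the hearts among the 9 genes. Part of its level came from Tbx18-202, a non-coding transcript of 423 bases that held 26.8% of the gene in replicate 1 and 21.3% in replicate 2 on only 6.88 and 5 counts. Without that transcript Tbx18 stood at 1.71 TPM in replicate 1 and 1.64 in replicate 2. The read-based share of Tbx18-202 was 28.6% in replicate 1 and 0.870% in replicate 2, so the read-based gene level, 2.75 TPM in replicate 1 and 1.92 in replicate 2, differed more between the hearts than its counts did.

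Tcf21, a basic helix-loop-helix factor needed for the formation of cardiac fibroblasts in the mouse (ENSMUSG00000045680.8, chr10:22817281-22820174, minus strand), was the highest of the 3 factors. It stood at 5.53 TPM in replicate 1 and 4.49 in replicate 2 (5.01 ± 0.735, SD, n = 2), from 221 and 184 counts. Its main transcript Tcf21-201 held 97.2% of the gene in replicate 1 and 98.9% in replicate 2. Gm10824, which overlaps it on the opposite strand, had only 7 counts in replicate 1 and 6 in replicate 2, and D030062O11Rik, opposite Tbx18, had 4 and 3. Whether the counting used strand is not given in the sources used here.

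Tcf21 and Tbx18 are also known in adult cardiac fibroblasts and mural cells, so their levels were set beside receptor genes of those cells. Tcf21 stood at 0.452 times the level of Pdgfra, a receptor gene of fibroblasts, in replicate 1 and at 0.448 times in replicate 2. Tbx18 stood at 0.13 times the level of Pdgfrb, a receptor gene of mural cells, in replicate 1 and at 0.122 times in replicate 2. Read-based, the ratio to Pdgfra was 0.522 for Tcf21 in replicate 1 and 0.492 in replicate 2, and the ratio to Pdgfrb was 0.136 for Tbx18 in replicate 1 and 0.098 in replicate 2. By TPM the 2 hearts were closer in the Tcf21 ratio than in the Tbx18 ratio in both quantifications. The Tbx18 levels include Tbx18-202, which rests on only 6.88 counts in replicate 1 and 5 in replicate 2. By counts, Tbx18 (272 in replicate 1, 267 in replicate 2) and Pdgfrb (3230 and 3153) were both close between the hearts. The order of the 2 ratios is therefore not a result about Tbx18 itself. Which cells gave the Tcf21 and Tbx18 RNA was not tested.

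Aldh1a2 encodes retinaldehyde dehydrogenase, the enzyme that makes retinoic acid in the embryonic epicardium (ENSMUSG00000013584.5, chr9:71215789-71296243, plus strand). It stood at 3.66 TPM in replicate 1 and 2.78 in replicate 2 (3.22 ± 0.622, SD, n = 2), from 268 and 210 counts in its only annotated transcript. The credibility intervals of the hearts, 3.18 to 4.04 TPM in replicate 1 and 2.37 to 3.11 TPM in replicate 2, did not overlap. That held for 4 of the 9 genes (Aldh1a2, Msln, Upk3b and Krt19), against 11.5% of the 15839 genes with enough counts to be compared. The paralogue Aldh1a1 was higher than Aldh1a2, at 8.03 TPM in replicate 1 and 5.37 in replicate 2, and Aldh1a3 was lower, at 0.45 and 0.55 TPM. Aldh1a2 was thus neither the highest nor the lowest of the 3 in either heart.

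Of the 14 other genes of retinoic acid synthesis, breakdown and binding, 7 were detected. Dhrs3, which reduces retinaldehyde back to retinol, was the highest of them, at 43.2 TPM in replicate 1 and 34.8 in replicate 2. The receptor genes Rarb and Rarg averaged 6.87 ± 0.495 and 7.07 ± 1.32 TPM, and Rara averaged 4.76 ± 0.332 TPM (SD, n = 2 each). Cyp26b1, which breaks retinoic acid down, stood just under the detection level, at 0.93 TPM in replicate 1 and 0.99 in replicate 2. The binding protein genes Crabp1 and Crabp2 had no counts in either heart.

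Msln and Upk3b were the highest of the 9 genes. Msln, a glycoprotein anchored on the mesothelial surface (ENSMUSG00000063011.7, chr17:25748613-25754378, minus strand), stood at 8.15 TPM in replicate 1 and 5.84 in replicate 2 (6.995 ± 1.63, SD, n = 2), from 526 and 387 counts. Upk3b, a uroplakin of mesothelium (ENSMUSG00000042985.7, chr5:136038496-136046487, plus strand), stood at 7.69 TPM in replicate 1 and 5.63 in replicate 2 (6.66 ± 1.46, SD, n = 2), from 892 and 674 counts in its only annotated transcript. Replicate 1 was the higher heart for both, and neither gene's credibility intervals overlapped between the hearts.

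The ligand of mesothelin, the mucin gene Muc16, was also detected, at 2.38 TPM in replicate 1 and 2.21 in replicate 2, while the mesothelin-like gene Mslnl had no counts. Msln stood at 3.42 times the level of Muc16 in replicate 1 and at 2.64 times in replicate 2. Msln reads were divided among 3 coding transcripts with different leading exons. Msln-201 also carries 12 more bases in an exon that ends at 25753074 rather than 25753062, 133 bases against the 121 of Msln-207 and Msln-208. Msln-208 held 44.4% of the gene in replicate 1 and 22.8% in replicate 2, Msln-201 held 20.6% and 37.5%, and Msln-207 held 27.0% and 32.1%. The leading transcript differed between the hearts in both quantifications, and the intervals were wide, 1.61 to 5.18 TPM in replicate 1 and 0.216 to 2.96 TPM in replicate 2 for Msln-208, and overlapped.

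Upk1b, a tetraspanin uroplakin (ENSMUSG00000049436.5, chr16:38773184-38800328, minus strand), was the lowest of the 9 genes, at 1.68 TPM in replicate 1 and 1.55 in replicate 2, from 102 and 97 counts. Upk3b stood at 4.58 times the level of Upk1b in replicate 1 and at 3.63 times in replicate 2. Other uroplakin genes, among them those of the plaques of the bladder lining, were near 0. Upk1a was at 0.20 TPM in replicate 1 and 0.15 in replicate 2, Upk2 was at 0.03 TPM in both, and Upk3a and Upk3bl had no counts. None of the 5 urothelium genes was detected.

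Lrrn4, a leucine-rich repeat membrane protein used as a mesothelial marker (ENSMUSG00000043110.2, chr2:132868305-132880891, minus strand), stood at 2.13 TPM in replicate 1 and 1.77 in replicate 2 (1.95 ± 0.255, SD, n = 2), from 260 and 224 counts. Its relatives Lrrn4cl, at 1.87 TPM in replicate 1 and 2.01 in replicate 2, and Lrrn2, at 1.23 and 1.46 TPM, were also detected. Lrrn1 and Lrrn3 were at 0.14 TPM or less in both hearts. Lrrn4 was higher than Lrrn2 in each heart, but Lrrn4cl was higher than Lrrn4 in replicate 2. Read-based, Lrrn4cl was higher in both hearts, at 2.37 TPM against 2.31 in replicate 1 and 2.38 against 1.92 in replicate 2.

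Krt19, a simple epithelial keratin (ENSMUSG00000020911.14, chr11:100140810-100148665, minus strand), stood at 3.77 TPM in replicate 1 and 2.23 in replicate 2 (3.00 ± 1.09, SD, n = 2), from 160 and 96 counts. Its credibility intervals, 3.06 to 4.58 TPM in replicate 1 and 1.77 to 2.88 TPM in replicate 2, did not overlap, and it had the largest spread between the hearts of the 9 genes, relative to its mean. Krt19-203, a non-coding transcript of 823 bases, held 29.4% of its level in replicate 1 and 32.4% in replicate 2, on 27.1 and 18.3 counts, but only 1.57% at most in the read-based tables. Without it Krt19 stood at 2.66 TPM in replicate 1 and 1.51 in replicate 2. The other simple keratins Krt7 (1.66 ± 0.0566 TPM) and Krt18 (1.29 ± 0.184 TPM) were detected, and Krt8 was at 0.98 TPM in replicate 1 and 0.67 in replicate 2. Krt19 exceeded Krt7 2.33 times in replicate 1 and 1.31 times in replicate 2, but read-based the ratio was 1.45 in replicate 1 and 0.892 in replicate 2, so that order was not kept. Krt20, a keratin of gut and bladder epithelium, had no count in replicate 1 and 1 count in replicate 2.

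**Figure D2:**
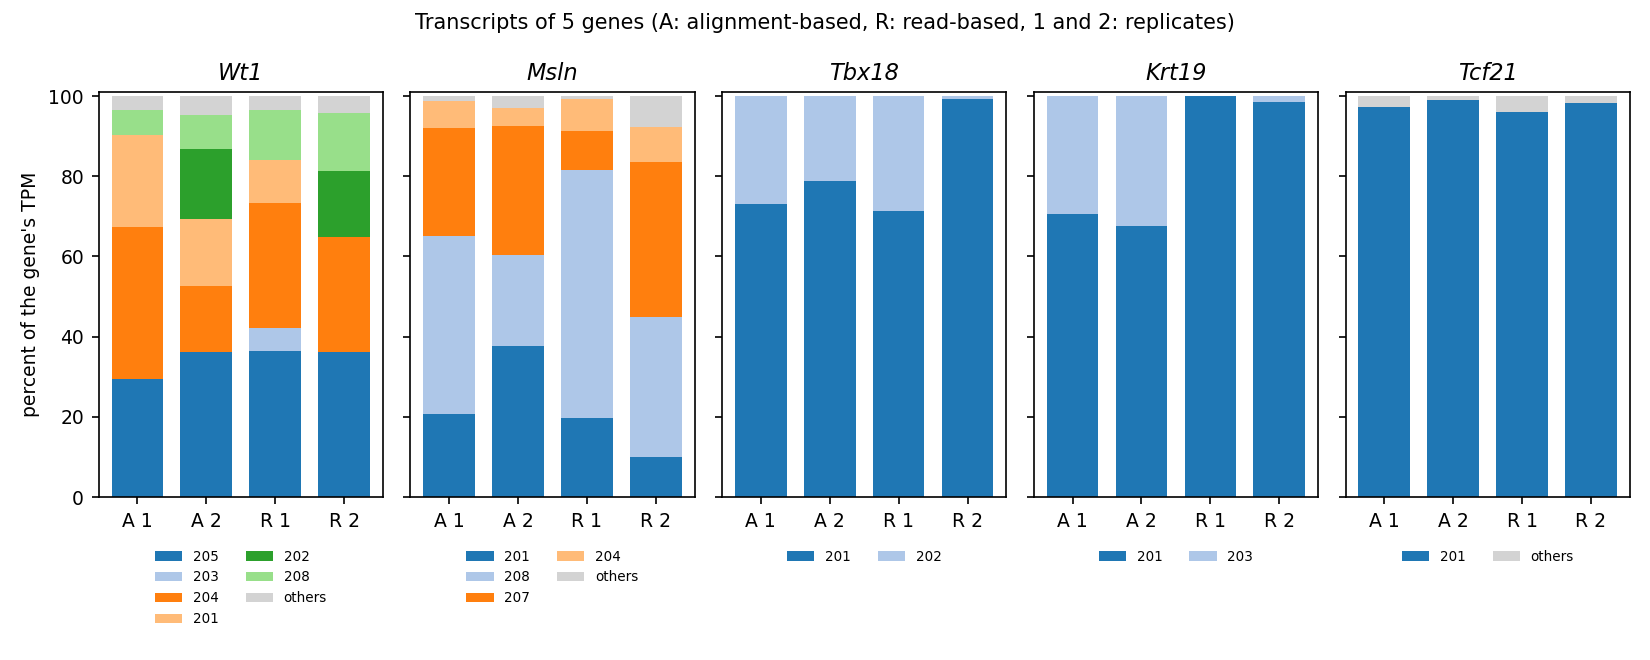
Percent of each gene's TPM held by its transcripts, for Wt1, Msln, Tbx18, Krt19 and Tcf21, in the alignment-based tables (A) and the read-based tables (R) of replicates 1 and 2. Tcf21 keeps its leading transcript at 97.2% and 98.9% in the alignment-based bars, while the parts of Wt1, Msln, Tbx18 and Krt19 change between bars. Tbx18-202 is at 0.870% in the read-based bar of replicate 2, and Krt19-203 is at 1.57% at most in the read-based bars.

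By mean level the genes ran from Msln through Upk3b, Tcf21, Aldh1a2, Krt19, Tbx18, Wt1 and Lrrn4 to Upk1b. The values of the 2 hearts did not overlap between Upk3b and Tcf21, between Tcf21 and Aldh1a2, or between Lrrn4 and Upk1b. For the last of these pairs the credibility intervals within a heart overlapped. All other neighbours overlapped, and Aldh1a2 and Krt19, and Wt1 and Lrrn4, changed places between the hearts. In the read-based tables Wt1, at a mean of 2.59 TPM, lay above Tbx18, at 2.33 TPM. Without its short transcript Tbx18, at 1.68 TPM, lay below Wt1 and Lrrn4. Krt19 without Krt19-203, at 2.085 TPM, lay below Tbx18 with all its transcripts, at 2.21 TPM, but above Tbx18 without Tbx18-202. The genes ranked between 6354 (Msln) and 10365 (Upk1b) among the 22015 nuclear protein-coding genes.

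Of detected nuclear protein-coding genes, 42.1% lay below Msln and 5.59% below Upk1b. The read-based levels were 1.06 to 1.31 times the alignment-based ones, with a median of 1.13, beside a median of 1.17 for detected nuclear protein-coding genes. All 9 genes were detected in both quantifications, and the leading transcript by the mean of the hearts was the same for all 6 that have more than 1 annotated transcript.

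**Figure D3:**
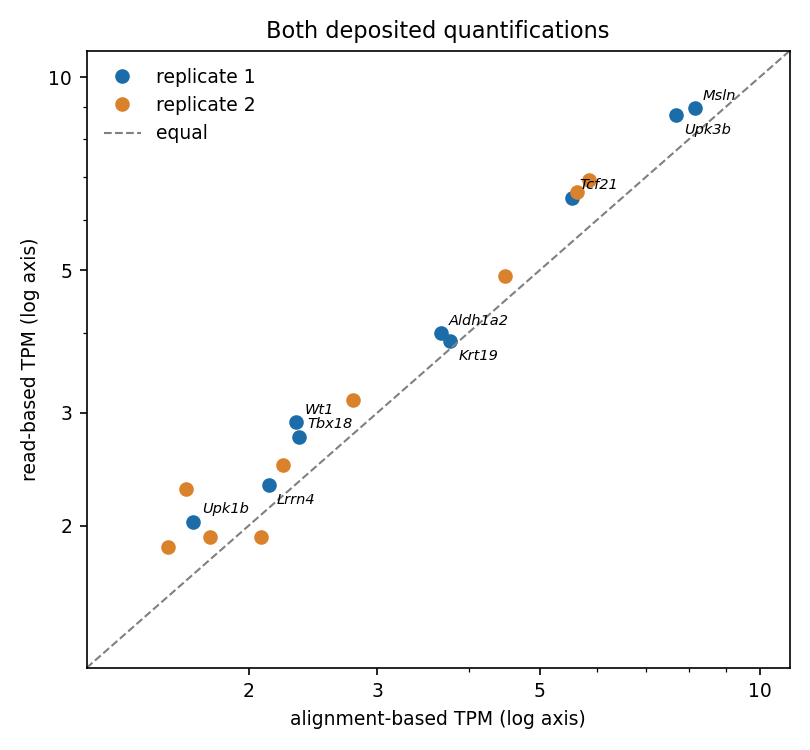
Alignment-based TPM against read-based TPM of the 9 genes in replicates 1 and 2, both on log axes, with a dashed line of equal values. All points lie above the line except Tbx18 in replicate 2, at 2.08 TPM alignment-based and 1.92 TPM read-based.

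Promoter sequences from RefSeq (GRCm38.p6, the build of mm10) were matched by symbol for 5 of the 9 genes, and 3 are shown, that of Aldh1a2 for its CpG content and those of Upk3b and Lrrn4 because they share a motif match. Each runs from 250 bases before to 50 bases after the annotated start and is printed in the direction of the gene. Capitals mark matches to the motifs searched, on both strands. The letters searched were GGGCGG for the binding element of SP factors, CCAAT for the element bound by nuclear factor Y, and TATAAA for the element bound by the general factor TFIID. They were GGAATG for the element of TEAD factors and CAGCTG for an element bound by helix-loop-helix factors. No match overlapped another.
Aldh1a2, chr9:71215539-71215838, plus strand: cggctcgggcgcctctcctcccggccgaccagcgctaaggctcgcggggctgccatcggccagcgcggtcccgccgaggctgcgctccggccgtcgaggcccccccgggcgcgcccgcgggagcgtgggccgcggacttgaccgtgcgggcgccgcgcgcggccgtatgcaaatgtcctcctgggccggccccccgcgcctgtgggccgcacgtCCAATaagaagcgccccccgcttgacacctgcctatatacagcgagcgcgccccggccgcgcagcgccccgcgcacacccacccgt
Upk3b, chr5:136038246-136038545, plus strand: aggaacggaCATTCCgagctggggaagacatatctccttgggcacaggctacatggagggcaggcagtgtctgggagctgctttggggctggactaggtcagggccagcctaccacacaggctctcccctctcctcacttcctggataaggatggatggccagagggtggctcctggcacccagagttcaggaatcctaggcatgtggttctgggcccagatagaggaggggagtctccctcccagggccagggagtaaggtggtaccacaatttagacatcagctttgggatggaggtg
Lrrn4, chr2:132880813-132881112, minus strand: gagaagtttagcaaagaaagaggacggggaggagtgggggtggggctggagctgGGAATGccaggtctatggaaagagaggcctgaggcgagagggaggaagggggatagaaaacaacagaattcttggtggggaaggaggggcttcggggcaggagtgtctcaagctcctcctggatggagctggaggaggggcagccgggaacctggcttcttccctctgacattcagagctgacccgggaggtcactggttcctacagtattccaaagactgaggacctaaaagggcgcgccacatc

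The Aldh1a2 window held 50 CpG dinucleotides at 78% GC. Those of the surface protein genes Upk3b and Lrrn4 held 2 and 7 CpG at 58.7% and 58% GC. The Tbx18 and Tcf21 windows held 15 and 8 CpG at 51.7% and 53.3% GC. The median of all 32851 promoter windows was 52.7% GC. The TEAD letters stood in 2 of the 5 windows, those of Upk3b and Lrrn4, and in 14.7% of all windows. The nuclear factor Y letters stood in the windows of Aldh1a2 and Tbx18 and in 37.4% of all. The SP, TFIID and helix-loop-helix letters, present in 35.7%, 13.6% and 16.3% of all windows, stood in none of the 5, and the Tcf21 window held none of the motifs. These matches describe letters only.

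The 2 hearts were compared gene by gene, although they belong to the same group, to show how far each level is repeatable. The ratio is of counts in replicate 1 over replicate 2 after scaling to library size. It was tested with a two-sided exact binomial test and Benjamini-Hochberg adjustment over 15839 genes, those whose counts averaged 10 or more. This test compares the reads of 2 libraries and covers counting error only. A gene was called different at an adjusted p under 0.05, a ratio of at least 2 in either direction and credibility intervals that did not overlap. None of the 9 genes was called, against 130 of all genes (0.821%).

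By the adjusted p alone, without a minimum ratio, 3 of the 9 genes differed, against 20.3% of all genes, and all 3 were higher in replicate 1. The ratio for Krt19 was 1.62 (95% exact interval 1.25 to 2.11), with an adjusted p of 0.00157 in the exact binomial test. For Msln it was 1.32 (1.16 to 1.51), with an adjusted p of 0.000294 in the exact test. For Upk3b it was 1.29 (1.17 to 1.43), with an adjusted p of 9.74e-06 in the exact test. These are a keratin and the 2 most abundant surface protein genes. Upk3b and Msln also had the most counts of the 9 genes, 892 and 526 in replicate 1, so smaller ratios can pass for them.

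Aldh1a2, at a ratio of 1.24 (1.03 to 1.497), did not pass, with an adjusted p of 0.0831 in the exact test. With library sizes set by the spike-ins it passed, at an adjusted p of 0.00984 in the exact test. The 3 transcription factor genes did not pass: the ratios were 1.197 (0.945 to 1.52) for Wt1, 1.17 (0.958 to 1.43) for Tcf21 and 0.992 (0.835 to 1.18) for Tbx18. Lrrn4, at 1.13 (0.942 to 1.36), and Upk1b, at 1.02 (0.768 to 1.37), did not pass either. The intervals of Aldh1a2, Wt1, Tcf21, Lrrn4 and Upk1b, the gene with the fewest counts, all include the ratios of Msln and Upk3b. That of Tbx18 includes neither. Apart from Tbx18, the genes that did not pass are therefore not shown to differ less between the hearts than Msln and Upk3b.

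In direction, 8 of the 9 genes had a higher scaled count in replicate 1, against 50% of all genes tested, and Tbx18 had a log2 ratio of -0.01. The sign of Tbx18 turned to positive with total counts, spike-in totals, read-based counts or TPM, at values of 0.02, 0.09, 0.01 and 0.16. The median log2 ratio of the 9 genes was 0.26, beside -0.00016 for all genes tested and -0.0022 for the 5917 genes with mean counts in the range of the 9. With spike-in totals the median of all genes shifted to 0.10 and that of the 9 genes was 0.36.

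**Figure D4:**
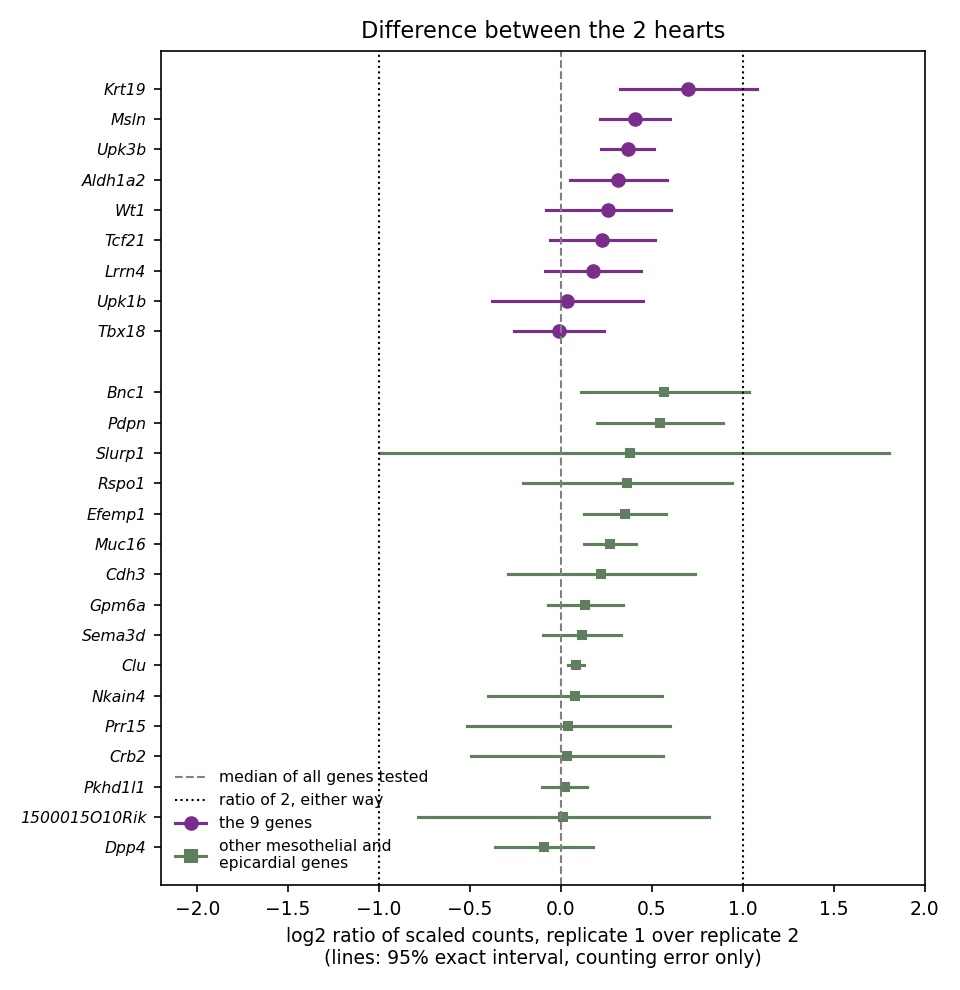
Log2 ratio of scaled counts, replicate 1 over replicate 2, of the 9 genes (circles) and of 16 other mesothelial and epicardial genes (squares), with exact 95% intervals for counting error as lines. Points to the right of the dashed line, the median of all genes, are higher in replicate 1, and Krt19 has the highest log2 ratio of the 9 genes, 0.70.

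A list of 18 other mesothelial and epicardial genes was measured beside the 9 genes. In it 11 genes were detected, led by the secreted chaperone gene Clu (146 ± 11.8 TPM), which many cell types express, the fibulin gene Efemp1 (5.29 ± 1.24 TPM) and Gpm6a (3.71 ± 0.396 TPM). The median of the list was 1.495 TPM in replicate 1 and 1.52 in replicate 2, whereas that of the 9 genes was 3.66 TPM in replicate 1 and 2.23 in replicate 2. Calb2, the gene of the mesothelial marker calretinin, had no counts in either heart, and the epithelial cadherin gene Cdh1 had 5 counts in replicate 1 and 2 in replicate 2. The transcription factor gene Bnc1 was at 0.66 TPM in replicate 1 and 0.42 in replicate 2, under the detection level.

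Of the 16 genes of that list that were tested, 15 had a higher scaled count in replicate 1, against 50% of all genes, and the median log2 ratio was 0.13. By the adjusted p of the exact test, 4 of the 16 differed at any ratio, a share near the 20.3% of all genes. They were Muc16, Efemp1, Clu and the podoplanin gene Pdpn, all higher in replicate 1, and none was called. Of the 9 genes of the retinoic acid list tested beside Aldh1a2, 5 had a higher scaled count in replicate 1, and 3 passed by adjusted p (Aldh1a1, Dhrs3 and Rarg). Both counts are likewise to be read against 50% and 20.3% of all genes.

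Genes of the other cell types of the heart were compared in the same way, with 50% of all genes higher in replicate 1 and 20.3% passing by adjusted p as the background. This background was not matched for counts, here or for the other lists. Genes with high counts can pass at small ratios, as the cardiomyocyte gene Myh6 did at a ratio of 0.919. Of 9 fibroblast genes, 8 were higher in replicate 1 and 7 of these passed, with a median log2 ratio of 0.18 and a summed level of 915 TPM in replicate 1 and 759 in replicate 2. Of 9 mural cell genes, 6 were higher in replicate 1 (median 0.18), 5 passed as higher, and 1, the potassium channel subunit gene Abcc9, passed as lower. Of 7 endothelial genes, 6 were higher and 5 passed (median 0.13), and of 7 macrophage genes, all were higher and 4 passed (median 0.37). All 6 cardiomyocyte genes were lower in replicate 1 and all 6 passed, with a median of -0.12. The part of these differences in the ratios of the 9 genes was not tested.

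Of 12 genes of signals between epicardium and myocardium, 9 had a higher scaled count in replicate 1, against 50% of all genes. The exact test was passed by adjusted p by 4 as higher and 2 as lower, against 20.3% of all genes in either direction. The growth factor genes Fgf9, at 2.88 TPM in replicate 1 and 3.71 in replicate 2, and Igf2, at 50.2 and 60.3 TPM, were the 2 that passed as lower in replicate 1. Tmsb4x (thymosin beta-4, 189 ± 17.0 TPM) and the chemokine gene Cxcl12 (44.0 ± 3.10 TPM) were the other leading genes of the list by level.

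Genes of other tissues were measured because mesothelium and pericardium lie beside some of them. The 7 liver genes named above as higher in replicate 2 were all called different, against 0.821% of all genes. No thymus gene and no urothelium gene of the lists was detected. Of 8 lung epithelium genes only Hopx, which heart muscle also expresses, was detected, at 172 TPM. Of 5 white fat genes 4 were detected, led by Fabp4, which endothelium also expresses. Fabp4 had a higher scaled count in replicate 1 and passed by adjusted p, whereas Adipoq, Plin1 and Cidec, which are more specific to fat cells, had log2 ratios of -0.58, -0.46 and -0.33 and did not pass.

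**Figure D5:**
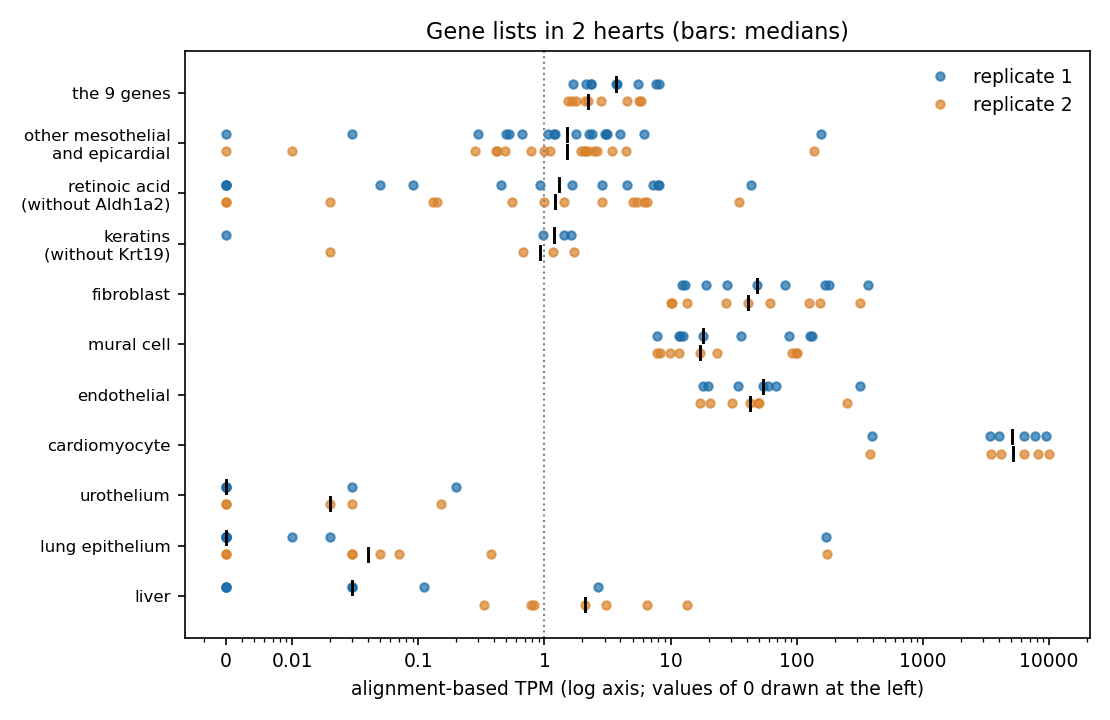
TPM of every gene of 11 lists in replicates 1 and 2 on a log axis, with values of 0 drawn at the left edge and short bars at the medians. The 9 genes lie between 1.55 and 8.15 TPM, below every fibroblast, endothelial and cardiomyocyte gene drawn, while the lowest mural cell value is 7.83 TPM.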

How the data were processed

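Total RNA of 2 hearts was sequenced. Per the deposited listings, reads were quantified on mm10 with GENCODE M21, once from transcriptome alignments and once from 1 FASTQ file. Which tools did so is not given in the sources used here. Expected or estimated counts of both kinds are unnormalized reads for each gene or transcript, per the file headers. The authors' TPM covers every entry of a table, spike-ins included. The score columns hold deposited lower and upper limits of credibility intervals for TPM, of a level not stated in the headers. The percent column holds each transcript's deposited percentage of its gene.

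From these, read-based transcript values were summed to genes. Library sizes were adjusted by the TMM method (edgeR 4.0.16, run under R 4.3.3), and counts rounded before the exact binomial test. The reference genome's strain differs from 1 parent of these hybrids, and the effect on the levels was not tested. Intervals of ratios are exact 95% intervals and reflect only counting error. The p-values set the difference between these 2 libraries against counting error and hold no estimate of the variation between animals. The comparison step, without its credibility intervals, was run on simulated counts that held counting noise only. Of 200 genes changed 3-fold it recovered 184, and of 15639 unchanged genes it called 0. Variation between animals and the credibility intervals were not part of that simulation. The remaining work was done with Python 3.11.15 and scipy 1.17.1, using pandas 2.3.3 for tables, numpy 2.4.6 for arithmetic and matplotlib 3.10.9 for plots. DESeq2 1.42.0 gave alternative size factors. Other alternatives were total and spike-in scaling, other thresholds and filters, posterior mean and rescaled TPM, read-based values, and each heart left out.

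The 9 genes and the 19 gene lists that were compared were chosen with earlier results of these data known. The result of 1 of these lists is not reported here. All 9 genes and the genes of lists that hold one of them could be named; from other lists, the 3 highest by mean TPM, those called and defining markers at 0. Pdgfra, Pdgfrb, Pdpn, Bnc1, Cdh1, Adipoq, Wt1os and Fgf9 were named outside that rule, after their values were seen. Likeness to other genes was not computed, since 2 samples allow none. Promoters came from RefSeq. Read alignments were not analysed here.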

Additional observations from a re-analysis of the deposited data

How the results depend on the processing

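The 9 genes were detected in both hearts under the read-based tables and the posterior mean. At 2 TPM, 6 were. Rescaling raised every level. It, a threshold of 0.5 TPM and leaving out a heart could not lose a gene detected at 1 TPM, so these settings are no check of the 9 genes. Their summed level was 83.6 TPM after rescaling to nuclear protein-coding genes and 28.0 to 37.3 TPM with a heart left out. Of all 15839 genes tested, 130 were called. Of the same 15839, the number was 290 without the credibility intervals, 321 at a minimum ratio of 1.5 and 1392 with no minimum ratio. It was 25 of 11238 at a mean count of at least 100 and 341 of 16592 with read-based counts. Among the 9 genes, 1 (Krt19) was called at a ratio of 1.5, beside 321 of 15839 genes. With no minimum ratio 3 were called (Krt19, Msln, Upk3b), beside 1392 of 15839 genes. These calls still require credibility intervals apart, unlike the 20.3% of all genes that passed by adjusted p alone. The log2 ratio of Tbx18 was -0.01 and turned to 0.0185 with total counts, 0.0882 with spike-in totals, 0.00886 with read-based counts and 0.163 with TPM; the causes were not tested. The level of single genes moved by more than 1 SD for all 9 with rescaling. It did so for Wt1 (2.59 TPM) and Upk1b (1.94 TPM) with read-based tables and for Upk1b (1.72 TPM) with the posterior mean. Leaving out 1 of 2 hearts cannot move a mean that far. The leading transcript was the same in both quantifications for 8 genes in either heart alone, 3 of which have a single transcript. Counts of 102 in replicate 1 and 97 in replicate 2 limit what can be seen for Upk1b. The other alternatives kept the direction of the results they were run on. No paired analysis was possible because both libraries belong to 1 group.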
